A study of Mus musculus with 4 samples.

Results

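The genes described here encode voltage-gated calcium channels, and they were followed through the cell classes of the mouse hippocampus and between wild-type (WT) mice and Cyfip2+/R87C mice (KI), which carry 1 knock-in copy of Cyfip2 with R87C and model West syndrome, an epilepsy of infants. The members were chosen by symbol among the 32285 genes of the count tables: 8 genes for the pore-forming subunit (Cacna1a, Cacna1b, Cacna1c, Cacna1d, Cacna1e, Cacna1g, Cacna1h and Cacna1i) and 2 for auxiliary subunits (Cacna2d1 and Cacna2d3), each found once, 10 genes in all. Nuclei came from frozen hippocampi of both hemispheres of adult littermates on the C57BL/6N background, at the latest age that the study examined. There were 2 mice per genotype, with 1 library from each animal, so every comparison of genotypes rests on 2 libraries against 2. WT mice carried no mutant allele, and every KI mouse carried 1 mutant allele in all of its cells. The treatment label of KI replicate 2 reads R88C while its protocol reads R87C, and its genotype label put it in the KI group.

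Voltage-gated calcium channels open when the membrane is depolarised and let calcium into the cell. The pore-forming subunit sets the channel type. L-type channels (Cacna1c and Cacna1d) couple activity to transcription, P/Q-type (Cacna1a) and N-type (Cacna1b) channels trigger transmitter release at synapses, R-type channels (Cacna1e) act in dendrites, spines and terminals, and T-type channels (Cacna1g, Cacna1h and Cacna1i) open near the resting potential and support burst firing. The products of Cacna2d1 and Cacna2d3 are auxiliary subunits that bring channels to the membrane, and Cacna2d1 encodes a target of the gabapentinoid drugs.

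The libraries held between 73009975 and 80913580 UMIs (unique molecular identifiers, the tags by which transcripts are counted), and 52032 of 55640 barcodes were kept as nuclei, with medians of 3868 to 4699 UMIs. Pairs of libraries shared 40 to 67 barcodes. Nuclei were sorted into classes by marker genes, with every calcium channel gene left out of the clustering, and 15 classes had at least 20 nuclei in each library. Clusters of 4222, 1377, 1266, 1203 and 716 nuclei, and some subclusters, took no class. Their nuclei enter the values over all nuclei but no class level. The largest of them had Fn1 among its leading genes. It held 696 and 972 nuclei of the WT replicates and 967 and 1587 of the KI replicates. The markers of dentate gyrus (DG) granule neurons summed to 1320 to 1640 CPM (UMIs of a gene scaled to 1e+06 UMIs of that class and library) in their own class and to at most 537 CPM in any other, whereas the CA3 list was higher in mossy cells (3330 CPM) than in CA3 pyramidal neurons, and the CA2 list was higher in oligodendrocyte precursors. The class of subicular or cortical excitatory neurons differed in make-up between libraries, with 289 nuclei in WT replicate 1 and 857 to 1163 in the others. The nuclear transcript Malat1 took 8.89% and 8.71% of UMIs in WT replicates 1 and 2, and 13.7% and 12.1% in KI replicates 1 and 2, and DG granule neurons made up 28.8% and 26.7% of WT nuclei and 20.7% and 17.4% of KI nuclei. The KI replicates also differed more from each other than the WT replicates did: in DG granule neurons the log2 differences between replicates had an SD over genes of 0.541 in KI and 0.274 in WT. The part of these differences in the results below was not tested, other than by leaving out each library.

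The first question was where in the hippocampus each channel gene is expressed. All class levels below are means ± SD over the 4 libraries, and levels are compared between genes only per 100 kb of gene, since long genes gather more nuclear reads.

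**Figure D1:**
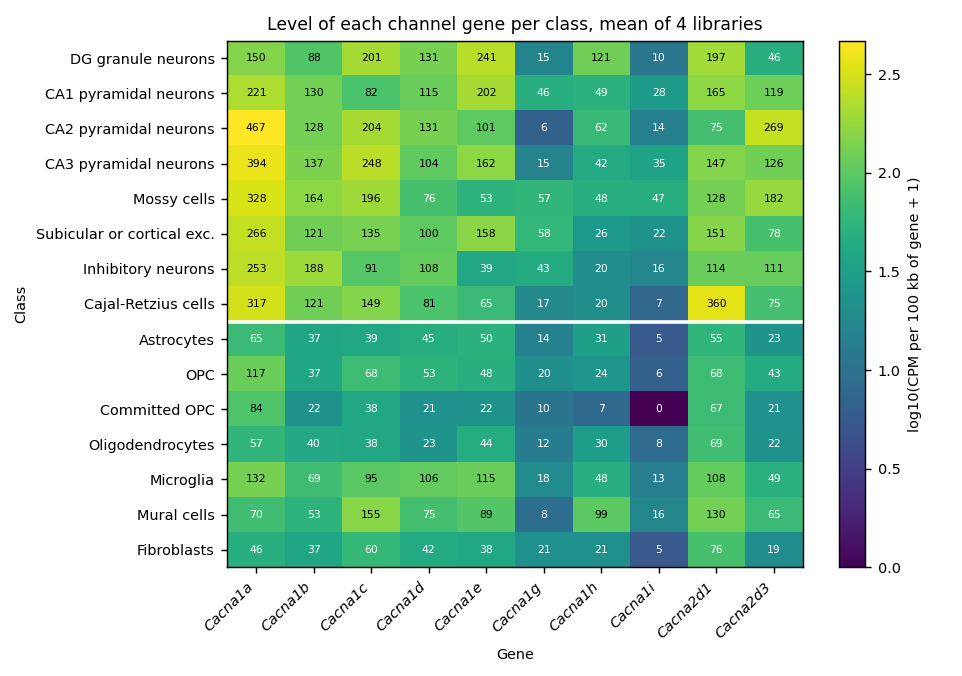
Level of the 10 channel genes (columns) in the 15 classes (rows; neurons above the white line, other cells below it), as CPM per 100 kb of gene length, mean of the 4 libraries; the colour is log10 of the value plus 1. Cacna1a reached 467 CPM per 100 kb in CA2 pyramidal neurons, the highest value shown, and Cacna1i was at or below 46.9 in every class.

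The L-type genes were expressed in all neuron classes. Cacna1c (chromosome 6, 118587240 to 119196418, minus strand; all positions are GRCm38) was highest in CA3 pyramidal neurons (1510 ± 56.4 CPM), and no library of that class overlapped with the next. CA2 pyramidal neurons (1240 ± 172 CPM), DG granule neurons (1230 ± 90.6 CPM) and mossy cells (1190 ± 64.6 CPM) overlapped in range, while CA1 pyramidal neurons held 498 CPM. Mural cells, the contractile cells of vessel walls, came next after these neurons with 943 ± 111 CPM, above inhibitory neurons (555 CPM). Cacna1d (chromosome 14, 30039939 to 30491455, minus strand) varied less among neurons: its neuronal class means ran from 593 ± 34.4 CPM in CA2 pyramidal neurons, with DG granule neurons beside it at 589 ± 21.5 CPM, down to 345 CPM in mossy cells.

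The genes of the synaptic channel types had different orders. Cacna1a (chromosome 8, 84388440 to 84640246, plus strand) was highest in CA2 pyramidal neurons (1180 ± 61.8 CPM), where every library lay above every library of CA3 pyramidal neurons (993 ± 93.4 CPM). DG granule neurons held 378 CPM, the lowest level of Cacna1a among the neuron classes. Cacna1b (chromosome 2, 24603887 to 24763152, minus strand) led in inhibitory neurons (300 ± 23.8 CPM) and mossy cells (262 ± 26.3 CPM), whose ranges overlapped, and was lowest among neurons in DG granule neurons (139 CPM). Per 100 kb, Cacna1a stood at 150 in DG granule neurons and Cacna1b at 87.5.

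Cacna1e, the R-type gene (chromosome 1, 154390731 to 154884501, minus strand), was highest in granule and CA1 neurons. It held 1190 ± 83.0 CPM in DG granule neurons and 997 ± 39.8 CPM in CA1 pyramidal neurons, and the libraries of these classes did not overlap. Inhibitory neurons held 193 CPM and mossy cells 260 CPM. Cacna1e was also the member with the highest level per length in granule neurons, at 241 CPM per 100 kb.

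The T-type genes had their highest levels in different classes. Cacna1h (chromosome 17, 25374285 to 25433783, minus strand) led in DG granule neurons (72.0 ± 26.0 CPM, an SD that holds the difference between genotypes given below), followed by mural cells (58.9 ± 25.7 CPM, from 2 to 7 UMIs per library) with overlapping libraries, and held 11.8 CPM in inhibitory neurons. Cacna1i (chromosome 15, 80287238 to 80398279, plus strand) was highest in mossy cells (52.1 ± 14.4 CPM), CA3 (38.6 ± 14.5 CPM) and CA1 pyramidal neurons (30.9 ± 10.4 CPM). These neighbours overlapped over the 4 libraries, which hold the difference between genotypes given below. In WT alone they did not overlap, with 62.6 and 66.4 CPM in mossy cells, 47.7 and 54.1 CPM in CA3 and 37.5 and 41.1 CPM in CA1. In KI, mossy cells (38.9 and 40.5 CPM) stood apart, while CA3 and CA1 pyramidal neurons overlapped. Cacna1g (chromosome 11, 94408391 to 94474198, minus strand) led in subicular or cortical excitatory neurons (37.9 ± 13.9 CPM), mossy cells (37.5 ± 9.55 CPM), CA1 pyramidal neurons (30.3 ± 2.70 CPM) and inhibitory neurons (28.5 ± 4.70 CPM), and was at 3.78 CPM in CA2 pyramidal neurons. Per 100 kb, Cacna1h stood at 121 CPM in granule neurons, Cacna1g at 14.9 and Cacna1i at 10.4.

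The auxiliary subunit genes were highest in different neuron classes. Cacna2d1 (chromosome 5, 15934691 to 16374511, plus strand) was highest in Cajal-Retzius cells, early-born neurons of the outer layer, with 1580 ± 380 CPM, above DG granule neurons (868 ± 19.5 CPM) in every library. Cacna2d3 (chromosome 14, 28904943 to 29721864, minus strand) was highest in CA2 pyramidal neurons (2200 ± 113 CPM) and mossy cells (1490 ± 194 CPM), with no overlap between these classes or with CA3 pyramidal neurons (1030 ± 95.3 CPM). In CA2 pyramidal neurons Cacna2d1 was at 329 CPM, and in DG granule neurons Cacna2d3 was at 374 CPM, while CA1 pyramidal neurons held both genes (725 and 972 CPM), as did inhibitory neurons (501 and 908 CPM).

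Among inhibitory neurons the same 2 genes took opposite places in Lamp5 and Sst interneurons. Cacna2d1 was measured at 2280 and 2300 CPM in the Lamp5 interneurons of WT replicates 1 and 2 and at 2440 and 2400 CPM in those of KI replicates 1 and 2. The Sst interneurons held 63.7, 70.8, 44.6 and 52.3 CPM in the same order, and the Pvalb interneurons 68.1, 55.6, 47.2 and 42.6 CPM, so that all Lamp5 libraries lay far above all others. Cacna2d3 had the reverse order: 1880, 1830, 2150 and 1800 CPM in Sst interneurons against 166, 129, 169 and 144 CPM in Lamp5 interneurons. Means of Cacna2d3 in Cnr1 and Vip interneurons were 1260 and 1060 CPM, and Pvalb interneurons, with a mean of 299 CPM, were low in both genes. These subclasses were named from marker genes in clusters made without channel genes, and each held at least 104 nuclei per library.

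**Figure D2:**
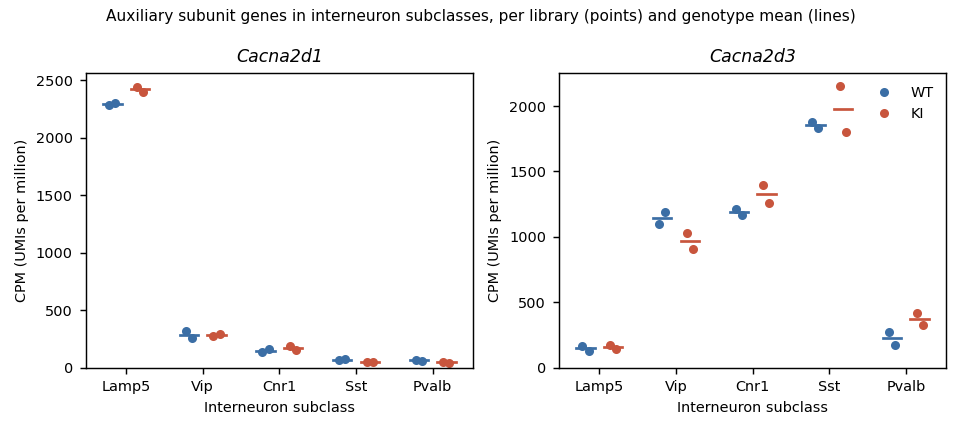
CPM of Cacna2d1 (left) and Cacna2d3 (right) in 5 interneuron subclasses; points are single libraries, lines are genotype means, WT in blue and KI in red. Lamp5 interneurons lie between 2280 and 2440 CPM for Cacna2d1 and at most at 169 CPM for Cacna2d3, while Sst interneurons are low in the first and between 1800 and 2150 CPM in the second.

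The pore-forming genes differed less among these subclasses. Cacna1a, whose product drives release from fast-spiking interneurons, was highest in Pvalb interneurons (881 CPM, overlapping with Sst interneurons at 793 CPM) and lowest in Cnr1 interneurons (235 CPM), whereas Cacna1b was highest in Cnr1 interneurons (443 CPM) and lowest in Pvalb interneurons (237 CPM). Cacna1e had 75.8 CPM in Pvalb and 307 CPM in Lamp5 interneurons. Cacna1g was at 49.4 CPM in Vip and 38.3 CPM in Sst interneurons against 7.98 CPM in Pvalb interneurons.

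Outside neurons the sum of the 10 genes was lower, although single members were not always so: Cacna1e in microglia (568 CPM) and Cacna1c in mural cells (943 CPM, 42 to 73 UMIs per library) stood above several neuron classes. In that sum, oligodendrocytes held 1280 ± 129 CPM and astrocytes 1380 ± 155 CPM, against 3640 ± 106 CPM in inhibitory neurons and 6300 ± 169 CPM in CA2 pyramidal neurons. Each gene in oligodendrocytes stood at 22.2% to 51.4% of its level over all nuclei, and in astrocytes at 22.8% to 52.0%. Microglia, at 53.1% to 103%, had 5.28 to 9.41 channel UMIs per nucleus, with 1920 to 3000 UMIs per nucleus in all, whereas DG granule neurons had 19.5 to 24.0 channel UMIs among 4150 to 4830. Mural cells stood at 167% for Cacna1h, from 2 to 7 UMIs per library, and at 23.4% for Cacna1g, from 1 UMI in all 4 libraries. How much of the glial levels came from free RNA was not tested.

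Over the 15 class means of the WT libraries, the genes most like each member by Pearson's r of log2(CPM + 1) included genes that overlap members in the genome. For Cacna2d3 they were Lrtm1 (r = 0.960), which overlaps Cacna2d3 on the opposite strand, and Nrg3os (0.917), and for Cacna1a they were Gm16183 (0.960), an antisense gene that overlaps it, and Lrtm1 (0.948). Cacna1b was most like Gm20275 (0.966) and Cplane1 (0.941), Cacna1c was most like Gm45159 (0.920) and Erc2 (0.916), Cacna1d was most like Sorbs2 (0.936) and Slc9a7 (0.932), and Cacna1e was most like Gm12122 (0.905) and Chrd (0.899). Among the T-type genes, Cacna1g was most like Mrps27 (0.879) and Pcsk1 (0.853), Cacna1h was most like the sodium-calcium exchanger gene Slc8a2 (0.934) and Plekhg5 (0.883), and Cacna1i was most like Rab15 (0.915) and Jade3 (0.915). Cacna2d1 was most like Ftx (0.876) and Kcnb2 (0.868). The classes share libraries and neurons differ from glia in most genes, so these values describe likeness over 15 points only. No member overlaps another gene on its own strand.

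The second question was whether the KI mice differed from WT. Raw UMIs were summed per library and class and tested with edgeR's quasi-likelihood test, with adjustment over all genes of the class and an adjusted p below 0.05 counted as a call. In DG granule neurons, the input neurons of the hippocampus, 3 of the 10 members were lower in KI and 0 were higher, where 4.95% of all 16343 genes tested were called lower and 9.86% were called in either direction. The 3 genes were the T-type genes Cacna1i and Cacna1h and the auxiliary gene Cacna2d3. The median log2 change of the 10 genes was -0.04, and that of all genes was 0.00.

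Cacna1i showed the largest change among the 10 genes there. WT replicates 1 and 2 held 17.5 and 20.1 CPM (312 and 306 UMIs), and KI replicates 1 and 2 held 3.19 and 5.48 CPM (38 and 53 UMIs). Both KI libraries lay well below both WT libraries. The WT libraries held 0.0726 and 0.0927 UMIs per nucleus, and WT microglia held 21.5 and 24.5 CPM. The part of free RNA in these levels was not tested. The log2 change was -2.0 ± 0.25 (SE), which is 4.01-fold lower in KI, with an adjusted p of 0.00771. Leaving out WT replicate 2 gave a log2 change of -1.90 with an adjusted p of 0.050, and the call was then lost by the unrounded value.

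Cacna1h, the T-type gene that marked granule neurons in the class order, was at 91.3 and 97.2 CPM in the WT replicates, against 54.0 and 45.7 CPM in the KI replicates. The groups did not overlap, and the log2 change was -0.78 ± 0.13 (adjusted p = 0.0188). Both KI values lay above every library of the other neuron classes, of which CA2 pyramidal neurons reached 45.2 CPM. Cacna2d3 was at 469 and 488 CPM in the WT replicates, against 270 and 269 CPM in the KI replicates, with no overlap. Its log2 change was -0.69 ± 0.09, 1.62-fold lower, with an adjusted p of 0.00777. Without WT replicate 1 or WT replicate 2, the log2 change of Cacna1h was -0.83 or -0.74 and that of Cacna2d3 was -0.72 or -0.67. Neither gene was called in these fits, where the KI pair alone sets the spread. Without KI replicate 1 or KI replicate 2, the log2 change of Cacna1h was -0.94 or -0.63 and that of Cacna2d3 was -0.73 or -0.65. Both genes were called there, with the spread of the closer WT pair alone.

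**Figure D3:**
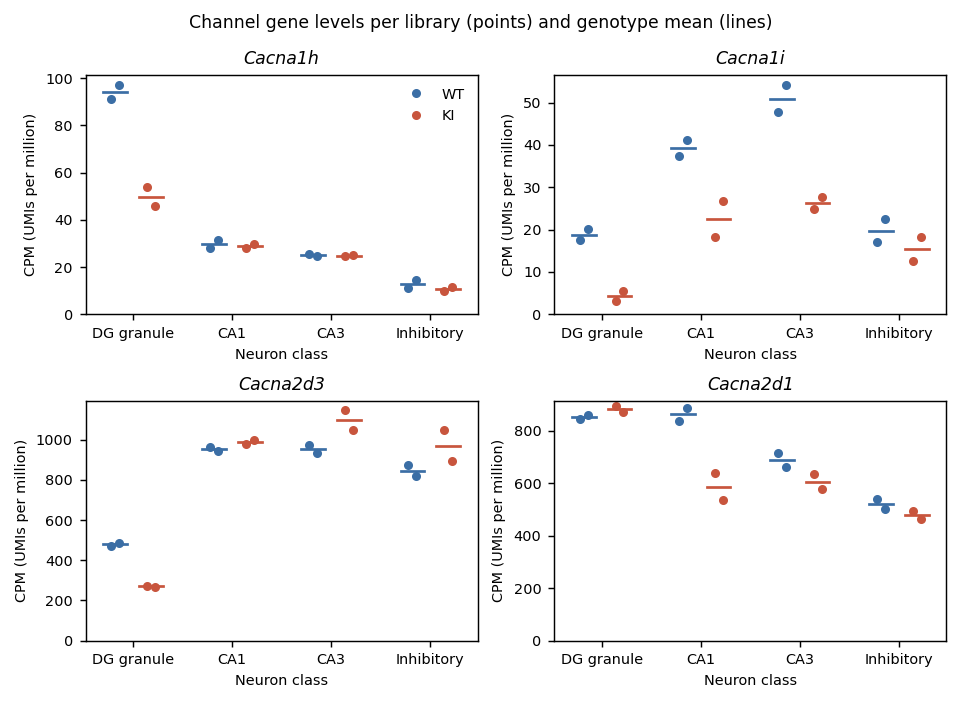
CPM of Cacna1h, Cacna1i, Cacna2d3 and Cacna2d1 in 4 neuron classes; points are single libraries and lines are genotype means, WT in blue and KI in red, on axes from 0. In DG granule neurons the KI points of Cacna1h (45.7 and 54.0), Cacna1i (3.19 and 5.48) and Cacna2d3 (269 and 270) lie below all WT points, whereas those of Cacna2d1 (871 and 893) do not.

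The remaining 7 members did not pass the test in DG granule neurons. Cacna1e, the member with the highest level there per length, had a log2 change of -0.04, as did Cacna1c and Cacna1g. Cacna1a was at -0.12 (adjusted p = 0.432), Cacna1b at 0.05, Cacna1d at 0.10 and Cacna2d1 at 0.18 (adjusted p = 0.195). Summed over the 10 genes, granule neurons held 5170 CPM in WT and 4550 CPM in KI. CPM are scaled by library totals, on which the median log2 change of all genes in this class was -0.13, and on that scale the mean levels of Cacna1b (143 CPM in WT, 135 CPM in KI) and Cacna1d (597 and 582 CPM) were lower in KI, opposite in sign to their TMM values.

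Starts of 2 of the 3 genes that were lower together in granule neurons are held in the RefSeq promoter table (GRCm38.p6), which has windows for 7 of the 10 members and none for Cacna1h. They are shown because these members moved together in 1 class, from 250 bases before to 50 after the annotated start, read on the gene's strand. Capitals mark the GC box GGGCGG and the half-site of the cAMP response element TGACG, each searched on both strands (CCGCCC and CGTCA on the other).
Cacna1i, chr15:80286988-80287287, plus strand: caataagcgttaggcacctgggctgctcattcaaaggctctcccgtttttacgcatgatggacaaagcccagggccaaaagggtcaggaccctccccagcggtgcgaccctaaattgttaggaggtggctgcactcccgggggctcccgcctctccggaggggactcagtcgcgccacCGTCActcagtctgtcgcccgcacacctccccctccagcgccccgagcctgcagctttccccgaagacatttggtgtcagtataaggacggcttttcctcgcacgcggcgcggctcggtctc
Cacna2d3, chr14:29721815-29722114, minus strand: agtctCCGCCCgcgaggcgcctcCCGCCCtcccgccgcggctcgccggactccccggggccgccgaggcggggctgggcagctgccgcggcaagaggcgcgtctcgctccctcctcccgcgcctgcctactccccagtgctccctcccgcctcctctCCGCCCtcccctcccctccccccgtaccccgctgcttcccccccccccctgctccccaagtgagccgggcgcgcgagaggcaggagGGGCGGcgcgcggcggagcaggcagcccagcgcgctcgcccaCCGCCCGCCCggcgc
The Cacna1i window held 1 half-site and 0 GC boxes, and the Cacna2d3 window held 0 half-sites and 6 GC boxes, of which the last pair overlap. Of all 32851 windows in the table, 20.8% held the half-site and 35.7% the GC box. The windows had a GC content of 62.7% and 81.3%, and they shared neither motif.

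In CA3 pyramidal neurons 1 of the 10 members was called, beside 3.31% of all genes. Different subclusters held most of this class in each genotype: 1 of them held 1 and 2 nuclei of the WT replicates and 408 and 323 of the KI replicates, whereas others held 293 and 254 WT nuclei with 1 and 21 KI nuclei, and 351 and 126 WT nuclei with 1 and 2 KI nuclei. The part of this split in the values of the class was not tested. Cacna1i was at 47.7 and 54.1 CPM in the WT replicates, against 24.9 and 27.6 CPM in the KI replicates, without overlap, a log2 change of -0.88 ± 0.15 (adjusted p = 0.0212), and without WT replicate 1 or WT replicate 2 the adjusted p was 0.115 or 0.239. Cacna1g was at 7.07 and 7.89 CPM in the WT replicates, against 11.7 and 12.4 CPM in the KI replicates and did not pass (log2 change 0.76, adjusted p = 0.0950).

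In CA1 pyramidal neurons 1 of the 10 members was called, beside 7.63% of all genes. Cacna1i was at 37.5 and 41.1 CPM in the WT replicates, against 18.2 and 26.7 CPM in the KI replicates, groups that did not overlap, with a log2 change of -0.73 ± 0.17 and an adjusted p of 0.0482. This call was lost under several alternatives. With clusters at a resolution of 1 in place of 0.5, an alternative chosen after seeing the data, the named CA1 nuclei became fewer. Those of WT replicates 1 and 2 went from 2482 and 1749 to 1867 and 1273, and those of KI replicates 1 and 2 from 1669 and 1809 to 799 and 1143. The paper reports CA1 subsets that differ in abundance between genotypes, and their part in these values was not tested. With the finer clusters the log2 change was -0.26 (adjusted p = 0.302), and with a marker gate on single nuclei it was -0.58 (adjusted p = 0.131). With library totals it was -0.81 (adjusted p = 0.0538) and with doublets kept -0.64 (adjusted p = 0.0539). Without WT replicate 1 or WT replicate 2 the adjusted p was 0.199 or 0.283. Cacna2d1 was at 839 and 887 CPM in the WT replicates, against 639 and 536 CPM in the KI replicates, groups that did not overlap, and missed the threshold (log2 change -0.46, adjusted p = 0.0637), while it was called by DESeq2 (adjusted p = 0.0283), under the replicate block (0.0123), with library totals (0.0277), with no low-count filter (0.0121) and with the finer clusters (0.0481). The median of the 10 genes in CA1 was 0.15, beside 0.00 over all genes.

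In CA2 pyramidal neurons Cacna1c was the only member called, beside 1.69% of all genes. It was at 1090 and 1100 CPM in the WT replicates, against 1370 and 1410 CPM in the KI replicates, a log2 change of 0.41 ± 0.10 (adjusted p = 0.0451) over 124 to 197 nuclei per library. The log2 change was 0.35 to 0.42 under all alternatives run for it. The adjusted p was 0.0691 when scaled by library totals rather than TMM, 0.348 with the marker gate and 0.0536 with the finer clusters, and without WT replicate 1 or WT replicate 2 it was 0.363 or 0.310.

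No member was called in inhibitory neurons as a whole (1.34% of all genes called; 3 members had an unadjusted p below 0.05, and DESeq2 called 0). With no low-count filter Cacna1c (log2 change 0.30, adjusted p = 0.0488) and Cacna2d3 (log2 change 0.28, adjusted p = 0.0413) were called there. Among subclasses, Cacna2d3 was called in Pvalb interneurons, where 2.63% of all genes were called. It was at 274 and 175 CPM in the WT replicates, against 420 and 327 CPM in the KI replicates, without overlap, a log2 change of 0.84 ± 0.18 (adjusted p = 0.0117). The Pvalb interneurons joined 2 clusters, which held 55 and 120 nuclei of WT replicate 1 and 187 and 84 of KI replicate 2, so that their make-up differed between libraries. Without WT replicate 1 or WT replicate 2 the log2 change was 1.22 or 0.52, and without KI replicate 1 or KI replicate 2 it was 0.63 or 1.04. Cacna2d3 was not called without WT replicate 2, and DESeq2 gave an adjusted p of 0.469. Cacna1c in Pvalb interneurons had an adjusted p of 0.0569, and it was called under the replicate block (adjusted p = 0.0209) and with no low-count filter (adjusted p = 0.0477). No member was called in Lamp5 (3.21% of all genes called), Cnr1 (0.591%), Sst (0.476%) or Vip interneurons (0.235%), where 2, 1, 2 and 0 members had an unadjusted p below 0.05 and DESeq2 called 0.

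**Figure D4:**
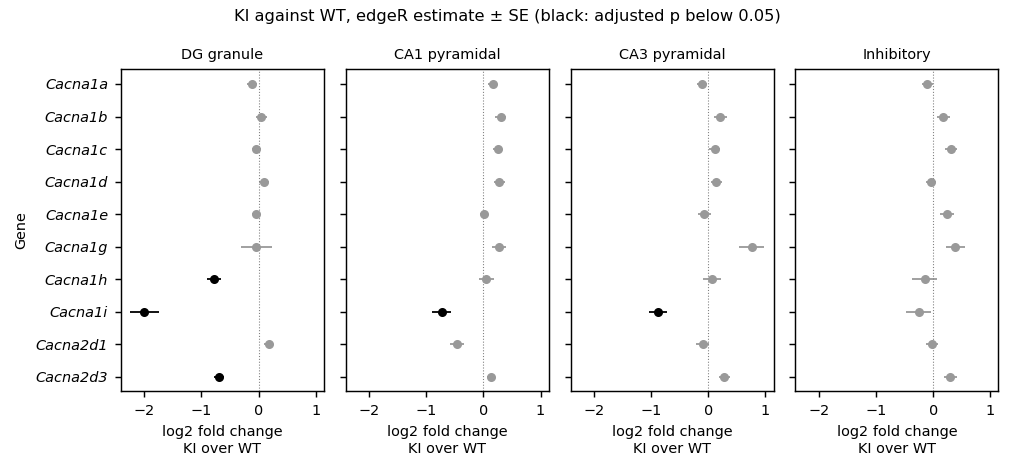
log2 fold change of KI over WT of the 10 channel genes in 4 neuron classes, edgeR estimate with SE; black marks an adjusted p below 0.05 and grey the others. Cacna1i is at -2.0 in DG granule neurons, -0.88 in CA3 and -0.73 in CA1 pyramidal neurons, and at -0.25 in inhibitory neurons, where it was not called.

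No member was called in the other classes, where 3 members in oligodendrocytes, 2 in astrocytes and in fibroblasts, and 1 in mossy cells, in oligodendrocyte precursors and in microglia had an unadjusted p below 0.05, and DESeq2 called none of them. Of all genes, 1.33% were called in mossy cells, 1.38% in oligodendrocyte precursors, 0.832% in oligodendrocytes, 0.0467% in astrocytes and 0.0424% in fibroblasts. The share was 0% in microglia, Cajal-Retzius cells, mural cells, committed oligodendrocyte precursors and subicular or cortical excitatory neurons, where edgeR gave 623, 220, 51, 112 and 1117 genes with an unadjusted p below 0.05. Cacna1i in mossy cells, the class with its highest level, was at 62.6 and 66.4 CPM in the WT replicates, against 38.9 and 40.5 CPM in the KI replicates, without overlap, over 41 to 86 nuclei (log2 change -0.60, adjusted p = 0.434). Cacna1i was also lower without overlap in glia, from few UMIs. Microglia held 21.5 and 24.5 CPM in the WT replicates (20 and 16 UMIs) and 3.11 and 7.72 CPM in the KI replicates (2 and 5 UMIs). The same order held in oligodendrocytes, oligodendrocyte precursors and astrocytes. In CA2 pyramidal neurons the order was reversed, with 13.5 and 12.3 CPM in the WT replicates against 19.2 and 14.9 CPM in the KI replicates. Cacna2d3 in mossy cells was at 1300 and 1330 CPM in WT and higher in both KI libraries, at 1640 and 1660 CPM, and missed the threshold (log2 change 0.42, adjusted p = 0.0641). In subicular or cortical excitatory neurons, whose make-up differed between libraries, Cacna1c was at 982 and 459 CPM in WT replicates 1 and 2 and at 1330 and 522 CPM in KI replicates 1 and 2, so that the spread within each genotype was larger than the difference between them. Of the 10 members, 6 passed the low-count filter in fibroblasts, mural cells and committed oligodendrocyte precursors, 7 in Cajal-Retzius cells, 9 in astrocytes, CA2 pyramidal neurons, microglia and oligodendrocyte precursors, and 10 in the other classes.

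Over all nuclei no member was called, beside 0.889% of all genes, and 4 members had an unadjusted p below 0.05. Cacna1h was at 43.4 and 43.9 CPM in the WT replicates, against 27.5 and 26.3 CPM in the KI replicates (log2 change -0.65, adjusted p = 0.0563), and Cacna1i was at 26.8 and 30.2 CPM in the WT replicates, against 12.9 and 18.5 CPM in the KI replicates (log2 change -0.82, adjusted p = 0.0825). Neither pair of groups overlapped, and DESeq2 called both genes (adjusted p = 2.37e-04 and 0.00133). Both genes were also lower within granule neurons, as given above. In WT the mean level of Cacna1h was higher in granule neurons (94.2 CPM) than over all nuclei (43.6 CPM), whereas that of Cacna1i was lower in granule neurons (18.8 CPM) than over all nuclei (28.5 CPM). Granule neurons were a smaller share of KI nuclei, and for Cacna1h the part of that share in the sum was not tested.

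The third question was whether the genotype effect differed between classes, which was tested by an interaction of class and genotype in edgeR, blocked by library. Of 60 combinations of 10 genes and 6 pairs of neuron classes, 12 were called. Between DG granule and CA1 pyramidal neurons, where 14.2% of all genes were called, Cacna2d3 differed by -0.82 ± 0.09 (adjusted p = 1.74e-05), Cacna1h by -0.82 ± 0.12 (adjusted p = 2.93e-04), Cacna1i by -1.26 ± 0.17 (adjusted p = 1.55e-04) and Cacna2d1 by 0.66 ± 0.10 (adjusted p = 3.33e-04). The Cacna2d1 difference combined a granule neuron change of 0.18 with a CA1 change of -0.46, neither of which was called alone. Against CA3 pyramidal neurons (10.4% of all genes called), granule neurons again differed in Cacna1h, Cacna1i and Cacna2d3, by -0.82, -1.13 and -0.97. Against inhibitory neurons (8.43%) they differed in Cacna1i (-1.75), Cacna2d3 (-0.99) and Cacna1c (-0.36), while the Cacna1h difference of -0.65 was not called (adjusted p = 0.0672). Between CA1 and CA3 pyramidal neurons (2.73%) and between CA1 pyramidal and inhibitory neurons (4.93%) Cacna2d1 was the only member called, and between CA3 pyramidal and inhibitory neurons (3.16%) no member was called, with 3 at an unadjusted p below 0.05. Of 8 alternatives, these Cacna2d1 differences stayed called under 5 (CA1 and CA3) and 6 (CA1 and inhibitory). Cacna1c between granule and inhibitory neurons stayed called under 6, and Cacna1i between granule and CA3 pyramidal neurons under 7. The other called differences stayed called under all 8.

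The genes around the channels were described with 6 lists of 89 genes in all: other channel subunits, channel partners, calcium-activated potassium channels, intracellular calcium release, calcium extrusion and buffering, and calcium-dependent kinases, phosphatase and transcription. Among granule neurons 5 of 77 tested list genes were higher in KI and 12 were lower, beside 803 higher and 809 lower of all 16343 genes tested, and the median log2 change was -0.05 beside 0.00 over all genes. All 3 called genes of intracellular calcium release, of 11 tested, were lower. Itpr1, the inositol trisphosphate receptor of the endoplasmic reticulum, was at 380 and 369 CPM in the WT replicates, against 49.6 and 105 CPM in the KI replicates (log2 change -2.16 ± 0.30, adjusted p = 0.00985), and the ryanodine receptor gene Ryr1 was at 50.7 and 49.0 CPM in the WT replicates, against 10.7 and 20 CPM in the KI replicates (log2 change -1.58, adjusted p = 0.0150). The buffer Calb1, a known marker of mature granule neurons, was at 162 and 160 CPM in the WT replicates, against 38.4 and 61.4 CPM in the KI replicates (log2 change -1.56 ± 0.19, adjusted p = 0.00756). KI libraries lay below WT libraries for each of these genes. Without either WT replicate in turn, where the KI pair alone sets the spread, Itpr1 and Calb1 were still called and Ryr1 was not. With each library left out in turn, the log2 changes ran from -2.75 to -1.74 for Itpr1, -1.89 to -1.29 for Calb1 and -2.04 to -1.21 for Ryr1.

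Other list genes in granule neurons were higher. Camk2d, a calcium/calmodulin-dependent kinase subunit, was at 29.5 and 36.7 CPM in the WT replicates, against 78.2 and 95.0 CPM in the KI replicates (log2 change 1.52, adjusted p = 0.00382), and it was still called without either WT replicate in turn (adjusted p at most 0.0328). Rimbp2, which ties channels to the release site, had a log2 change of 0.90, and Kcnma1, the large-conductance potassium channel gene, had 0.56. Both calls were lost without WT replicate 1 (adjusted p = 0.155 and 0.224) or WT replicate 2 (0.130 and 0.220). Among the other channel subunit genes, 1 of 14 tested was higher and 2 were lower in KI, and these were named after their values were seen. Cacna2d2, a further auxiliary subunit gene, was at 4.10 and 3.35 CPM in the WT replicates, against 10.7 and 12.2 CPM in the KI replicates (log2 change 1.75 ± 0.21, adjusted p = 0.00685). Its direction was opposite to that of Cacna2d3 in the same nuclei. Cacng8 and Cacng3, whose products are better known as partners of AMPA receptors, had log2 changes of -0.80 and -0.54.

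In CA1 pyramidal neurons, where 7.63% of all genes were called, 2 of 76 list genes were higher and 5 lower: Rimbp2 (log2 change 0.58) and the exchanger Slc24a4 (0.54) were higher, and Cacng3 (-0.82), the kinase Camkk2 (-0.70) and the channel subunit Cacnb1 (-0.56) had the largest falls among those measured at 10 CPM or more. In CA3 pyramidal neurons, with the split of subclusters given above and 3.31% of all genes called, 3 of 73 were higher, namely Slc24a4 (1.12), Camk2d (0.97) and Camk2g (0.83), and 4 were lower, among them Camkk2 (-0.94), Cacng2 (-0.82) and Camkk1 (-0.71). Elsewhere, 1 of 52 was lower in mossy cells, the calcium pump gene Atp2b2 (log2 change -1.10, adjusted p = 0.00707), and 2 of 62 were higher in oligodendrocyte precursors, Rcan2 (1.13) and Kcnma1 (0.58). The precursors also split by genotype, with 246 and 225 WT nuclei and 18 and 80 KI nuclei in 1 subcluster against 9 and 6 WT nuclei and 277 and 84 KI nuclei in another, and a subcluster of 179 nuclei kept in the class had oligodendrocyte genes (Sec14l5, Hapln2 and Prr5l) among its leading genes and 0 precursor markers raised. Over all nuclei 2 of 86 were lower, Calb1 (-0.83) and Itpr1 (-0.75). The calls named in CA1 and CA3 pyramidal neurons and Kcnma1 in precursors were all lost without WT replicate 1 and also without WT replicate 2 (adjusted p from 0.0504 to 0.433). Atp2b2 in mossy cells (adjusted p = 0.502) and Calb1 and Itpr1 over all nuclei (0.0926 and 0.0687) were lost without WT replicate 1, and Rcan2 (0.0982) without WT replicate 2. These counts are a description beside the shares of all genes given above and were not tested as lists.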

How the data were processed

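Single-nucleus RNA of the hippocampi of 4 mice was measured by a droplet 3′ method. The deposited values are raw UMI counts per gene and barcode, made by the authors with Cell Ranger on mm10, not normalized. Gene positions came from GENCODE M21 on GRCm38. The members, gene lists and tests were chosen with earlier results of these data known. A nucleus needed 500 genes or more and a mitochondrial share below 5%, and barcodes with a doublet score (Scrublet in scanpy 1.11.5) above 0.25 were removed. Nuclei were clustered with leidenalg 0.10.2 (2000 variable genes without Cacna1, Cacna2d, Cacnb and Cacng genes, 30 components, 20 neighbours, resolution 0.5, chosen after clusters were seen), and clusters took a class name only with 3 or more of its markers raised. CA3, oligodendrocyte precursor and endothelial clusters were clustered again. Subclusters with fewer markers raised against the rest of their cluster kept its name for CA3 and precursors, which holds for all CA3 subclusters, and stayed unnamed for endothelial cells. UMIs were summed per library and class, giving CPM and, with edgeR 4.0.16 (R 4.3.3; low-count filter, TMM, quasi-likelihood, Benjamini-Hochberg over all genes), KI against WT. Mice were the replicates, not nuclei. An exact permutation test of 2 against 2 cannot go below p = 0.333. The text names all members, and of the lists up to 3 genes per direction and class with the largest change at a mean of 10 CPM or more, besides Cacna2d2, Cacng3 and Cacng8 in DG granule neurons, named after their values were seen. Alternatives included DESeq2 1.42.0, library totals, no filter, at least 1000 genes, doublets kept, a marker gate, a replicate block and each library left out. On simulated counts for DG granule neurons (16343 genes), edgeR recovered 65.3% of genes changed by 1 log2 unit and 98.0% of those changed by 2, while for 1 log2 unit it recovered 58.9% in inhibitory neurons (15140 genes) and 27.2% in microglia (9443 genes), and for 2 log2 units 92.8% and 91.1%. The simulation gave WT and KI the same spread, so these shares leave out the larger spread of the KI replicates.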

Additional observations from a re-analysis of the deposited data

Results flagged for a closer look

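A difference between classes in the KI effect, tested as a class-by-genotype term in edgeR with the library as a block and adjusted over all genes, was called for 12 of 60 combinations of members and class pairs. In DG granule neurons minus CA1 pyramidal neurons the difference in log2 change was -0.82 for Cacna1h (adjusted p = 2.93e-04), -1.26 for Cacna1i (adjusted p = 1.55e-04), 0.66 for Cacna2d1 (adjusted p = 3.33e-04) and -0.82 for Cacna2d3 (adjusted p = 1.74e-05). In DG granule neurons minus CA3 pyramidal neurons it was -0.82 for Cacna1h (adjusted p = 0.00161), -1.13 for Cacna1i (adjusted p = 0.00230) and -0.97 for Cacna2d3 (adjusted p = 1.84e-05). In DG granule neurons minus inhibitory neurons it was -0.36 for Cacna1c (adjusted p = 0.0406), -1.75 for Cacna1i (adjusted p = 1.88e-04) and -0.99 for Cacna2d3 (adjusted p = 9.49e-05). For Cacna2d1 it was -0.36 in CA1 minus CA3 pyramidal neurons (adjusted p = 0.0446) and -0.47 in CA1 pyramidal minus inhibitory neurons (adjusted p = 0.0224). Both of these Cacna2d1 calls were lost under some alternatives. So were the calls of Cacna1c in DG granule minus inhibitory neurons and of Cacna1i in DG granule minus CA3 pyramidal neurons. Of all genes, such a difference was called for 14.2% (DG granule minus CA1 pyramidal neurons), 10.4% (DG minus CA3), 8.43% (DG minus inhibitory), 2.73% (CA1 minus CA3), 4.93% (CA1 minus inhibitory) and 3.16% (CA3 minus inhibitory). The class pairs share libraries and classes, so these values are not independent of each other.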

How the results depend on the processing

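Per class, 6 calls of members became 1 to 30 when each library was left out: 1 without WT replicate 1 (Cacna1i in DG granule neurons), 1 without WT replicate 2 (Cacna2d3 in subicular or cortical excitatory neurons, which was not among the 6), 21 without KI replicate 1 and 30 without KI replicate 2. The other alternatives gave 4 to 9, with 7 under the replicate block. Over all nuclei the 0 calls became 1 with library totals, 1 with no low-count filter, 2 with DESeq2 and 2 with the replicate block. The wider lists had 34 calls, 85 with no low-count filter, 75 with the replicate block and 4 to 203 with a library left out. The 12 differences between classes became 9 to 28 with a library left out. With the marker gate, 9 of 10 members kept their highest class. The gate named 10 and 9 mossy cells in the WT replicates and 7 and 7 in the KI replicates. These fell below the limit of 20 nuclei and were left out, and Cacna1i was then highest in CA3 pyramidal neurons. None of the called changes or differences named in the text turned direction under the alternatives run for it; Cacna2d2, Cacng3 and Cacng8 in DG granule neurons were not recomputed singly. The labels tie no same-numbered mice to each other, and the deviations of same-numbered libraries correlated at 0.0265 over all nuclei, 0.283 in subicular or cortical excitatory neurons and 0.344 in mural cells, so the replicate block was kept as an alternative. In Cajal-Retzius cells and microglia (-0.137 and -0.145) a crossed pairing, added after seeing the data, called 6 genes in place of 0. Library totals moved the median of all genes by up to -0.17 (DG granule neurons -0.13). The cause of these changes was not tested. Rare classes held few UMIs of T-type genes, with 2 to 7 of Cacna1h per library in mural cells.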
